A study of Mus musculus with 10 samples.

Results

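The peaks described here are the 2757 intervals wider than 10000 bases among the 21195 m6A peaks mapped in cultured mouse hypothalamic neural progenitor cells (13%). They were taken by width alone, as the end minus the start of each interval in the authors' deposited peak list, and all are called wide peaks here, against 18438 shorter peaks. Neural progenitor cells (NPCs) divide in culture and can give rise to neurons and glia. The cells came from the hypothalamus of embryonic day 14.5 mice carrying floxed Mettl14 alleles (Mettl14 f/f) and were grown with FGF2 and EGF. Control cells received a lentivirus with EGFP and knockout cells a lentivirus with EGFP and Cre, a recombinase that removes the floxed part of Mettl14. EGFP-positive cells were then sorted, and polyadenylated RNA was cut to fragments of about 80 nt and enriched with an m6A antibody kit. The labels list 4 immunoprecipitation (IP) libraries and 1 input library of control cells, and the same numbers of knockout cells, so all groups share the floxed alleles, the culture and a lentivirus. The sources used here do not name the promoter that drove Cre.

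The deposited table has 1 column of input reads and 1 of IP reads for each peak, and neither names a library or a genotype. The knockout was therefore not compared with the control, no value below has an SD, and the sources used here do not say whether the columns are sums or means over libraries. Over all peaks the columns held 26633390 input and 72308582 IP reads. The depth of single libraries was not analysed here. Of the marker lists, 12 of 19 progenitor genes, 8 of 18 neuronal, 10 of 13 astrocyte and tanycyte, 7 of 11 oligodendrocyte lineage and 2 of 15 genes of other tissues held a named peak of any width. For comparison, 8897 of 21900 annotated protein-coding genes held one. The lists were not tested against that share, and the counts do not show which cell types were present. A peak shows that RNA of the gene was present and enriched, not how much of it there was.

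N6-methyladenosine (m6A) is a methyl group on adenosines inside RNA, written during transcription by a complex around Mettl3 and Mettl14, removed by Fto and Alkbh5, and bound by proteins with a YTH domain that affect the decay and translation of the RNA. In mammalian messenger RNA it is best known from long internal exons, from the region around the stop codon and from the 3' untranslated region, at sites with the core GGAC. Sequenced fragments are laid on the genome, where an interval that begins in one exon and ends in another also takes in the introns between them.

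The wide peaks were far longer than the RNA fragments that were sequenced, and some began at the first base of a gene. The 5' edge of such a peak can be set beside the annotated start, so the sequences over the edge are shown for 3 genes. They have many IP reads in a wide peak whose 5' edge is the first base of the annotated gene span. They are shown 5' to 3' in the direction of transcription, from RefSeq for GRCm38.p6, with 30 bases before the peak in lower case and the first 30 bases of the peak in capitals.
Inka2 at chr3:105704569-105704628, plus strand: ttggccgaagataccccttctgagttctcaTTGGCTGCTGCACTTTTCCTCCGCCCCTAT
Ckap2 at chr8:22185790-22185849, minus strand: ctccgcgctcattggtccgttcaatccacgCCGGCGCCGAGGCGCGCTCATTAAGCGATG
Pgrmc2 at chr3:41083017-41083076, minus strand: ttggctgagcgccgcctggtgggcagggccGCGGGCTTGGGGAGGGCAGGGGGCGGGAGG
In all 3 the first capital is the first base of the annotated gene. From these edges the Inka2 peak ran 12.9 kb along the genome, the Ckap2 peak 10.7 kb and the Pgrmc2 peak 14.9 kb. None of the 3 runs of capitals held GGAC.

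A further set of short sequences shows what else the intervals enclosed. Of 1005 mouse microRNA hairpins in RefSeq, 29 lay wholly inside a wide peak on the same strand, in 29 different peaks, and 26 lay inside a shorter one. The wide peaks took up 124 Mb in sum and the shorter ones 30.0 Mb, so these counts do not refer to equal spans. MicroRNAs are RNAs of about 22 bases cut from hairpins, many of which lie in introns of host genes, and their seed (bases 2 to 8) pairs with target RNAs. The 32 mature microRNAs from hairpins in named wide peaks had 32 different seeds, so none shared one. Those of Cep170 (a centrosome protein gene), Ift74 (a gene of transport in cilia) and 3110082I17Rik are given with the seed in capitals, a choice made after the values were seen.
miR-350-5p in Cep170: aAAGUGCAugcgcuuuggg
miR-350-3p in Cep170: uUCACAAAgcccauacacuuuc
miR-872-5p in Ift74: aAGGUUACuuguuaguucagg
miR-872-3p in Ift74: uGAACUAUugcaguagccuccu
miR-339-5p in 3110082I17Rik: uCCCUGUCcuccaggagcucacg
miR-339-3p in 3110082I17Rik: uGAGCGCCucggcgacagagccg
The peak around miR-350 had 17482 IP reads, that around miR-872 had 1444 and that around miR-339 had 837. These are reads of the whole interval, and the files do not place them within it, so nothing here measures m6A on the microRNA precursors.

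The wide peaks had a median width of 22523 bases, with the middle 50% between 14349 and 44547 bases. Of them, 1541 were wider than 20 kb, 593 than 50 kb, 253 than 100 kb and 14 than 500 kb. The shorter peaks had a median of 650 bases. The width of 10 kb marked no gap between both kinds. Just inside it, Cdh20, a cadherin gene, had a peak of 10007 bases, the kinase gene Map3k7 one of 10026 and Erc1, a gene of vesicle release sites, one of 10040. Just outside, the noncoding Gm35940 had one of 9996 bases, the RNA-binding protein gene Serbp1 one of 9995 and the kinase gene Nek4 one of 9994. Their input and IP reads overlapped between both sides, from 26 and 60 reads in Map3k7 to 4017 and 18648 in Cdh20 inside, and from 15 and 67 in Gm35940 to 16521 and 42044 in Serbp1 outside.

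**Figure D1:**
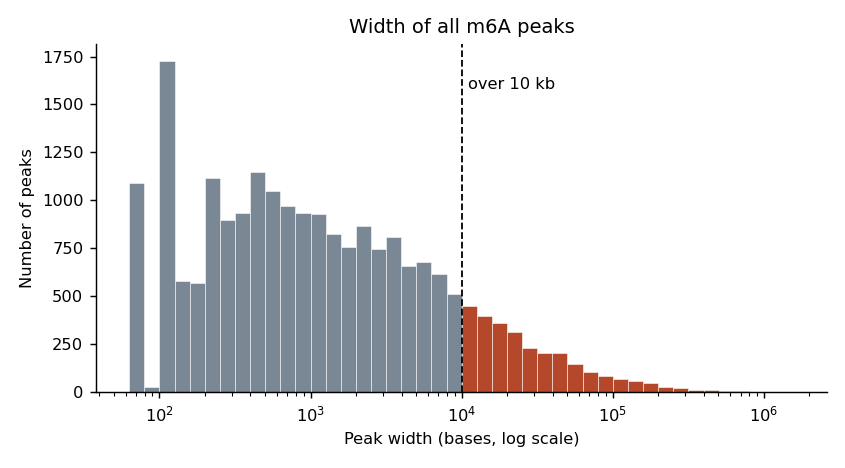
Number of m6A peaks by width in bases on a log scale, with the peaks over 10 kb in red and shorter peaks in grey. The dashed line marks 10000 bases, and the 2757 wide peaks form the upper tail of the distribution, with no gap at the line.

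Every wide peak was written as 1 block, with no list of exons inside it. No exon annotation was used here, so that these intervals cross introns was not tested directly. The read density describes the intervals but does not test this. The median wide peak had 21.2 input reads per kb of its span, against 569 for shorter peaks, and 44.1 IP reads per kb against 1279. The input density fell from 43.7 reads per kb in peaks of 10 to 20 kb to 21.0 at 20 to 50 kb, 6.91 at 50 to 100 kb and 2.32 above 100 kb, while the median input count of the same peaks only moved between 462 and 642 reads. In sum the wide peaks took up 124 Mb, which was 80.5% of the summed width of all peaks, and held 17.2% of the IP and 15.5% of the input reads. The density has the width as its divisor, and the wide peaks were taken by width. Its fall, and the large share of the summed width, therefore follow in large part from the rule. The counts show only that reads did not rise in step with width.

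Genes came from the position and identifier of each peak. Of the wide peaks, 2342 (84.9%) were held by 1 named RefSeq gene, against 88.5% of shorter peaks, and they fell in 1952 genes. Protein-coding genes took 2179 of these peaks, long noncoding RNA (lncRNA) genes 155 and pseudogenes 8. The other 415 wide peaks were not assigned. For 290 of them no gene on the same strand held 50% of the peak, and 93 of those touched a protein-coding gene of that strand. The widest interval of all was among the unassigned: 1266 kb at chr3:84534620-85801085 on the minus strand, with 4 gene identifiers, 8475 input and 18143 IP reads. In all, 251 wide peaks carried more than 1 identifier (9.10%, against 8.96% of shorter peaks), 9 carried 5 or more and 1 carried 26.

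Wide peaks were found in 1797 of the 8897 protein-coding genes with a named peak, 20.2% of them. Among the 7227 such genes longer than 10 kb, which could hold one, the share was 24.9%. The genes with a wide peak spanned a median of 82.9 kb and those with only shorter peaks 23.1 kb. The share with a wide peak rose with gene span at each step, from 8.04% (95% exact binomial interval 6.95 to 9.24) of genes of 10 to 25 kb to 20.0%, 31.5%, 43.3% and 48.6% in the next bands, and to 72.2% (64.7 to 79.0) of the 162 genes over 500 kb. A gene of 10 to 25 kb had little room for such a peak, so part of this order follows from the width limit itself. Most genes with wide peaks had only 1: 1632 genes did, 265 had 2, 42 had 3, 11 had 4 and 2 had 5.

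**Figure D2:**
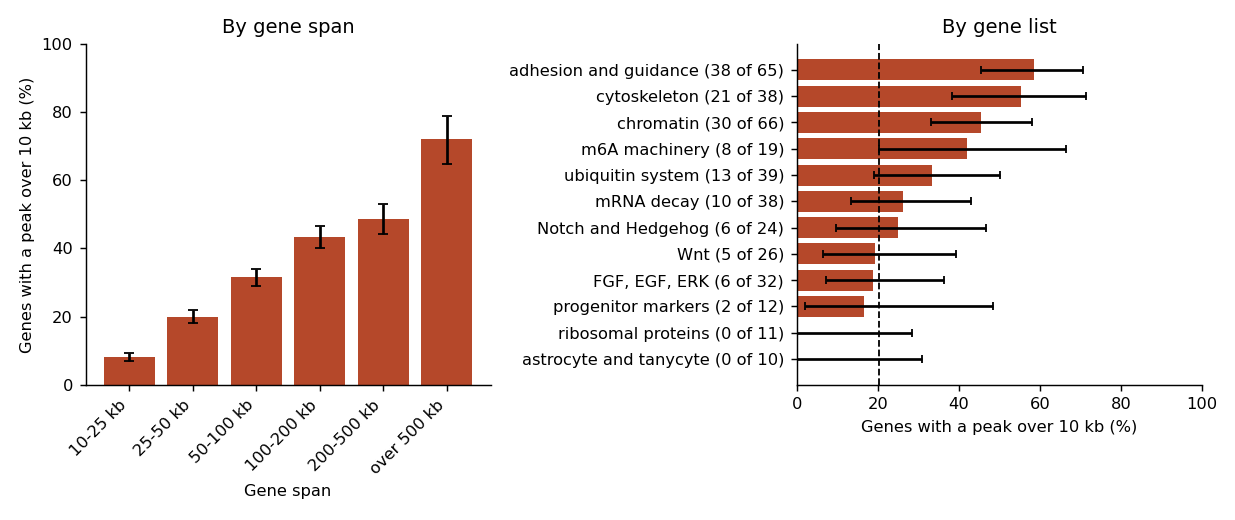
Share of genes with a named peak that hold a peak over 10 kb, in percent, by the span of protein-coding genes in kb (left) and by gene list (right). Bars are shares, whiskers 95% exact binomial intervals and the dashed line 20.2%, the share over all protein-coding genes with a named peak. The bars climb from 8.04% at 10 to 25 kb to 72.2% above 500 kb, and adhesion and guidance (58.5%) and cytoskeleton (55.3%) have the highest bars of the lists. The dashed line is not matched to the gene span of each list.

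The 8 widest named peaks lay in genes of 732 to 1433 kb, and several rested on few reads. Lrrc4c, which encodes a cell-surface ligand of netrin-G at synapses, held an interval of 913 kb, 69.5% of its 1314 kb span, with 320 input and 424 IP reads. Nrg1, a growth factor that binds ERBB receptors, had one of 874 kb with 39 input and 94 IP reads, and Prkg1, a cGMP-dependent protein kinase, one of 769 kb with 31 and 58. The proteoglycan gene Gpc5 had a peak of 736 kb with 591 input and 515 IP reads, and Sgcz, of the sarcoglycans, one of 708 kb with 136 and 129, so in both the IP count was the lower. At Hs6st3, a heparan sulfate sulfotransferase gene, the peak of 730 kb took up 99.7% of the gene and had 23 input and 192 IP reads, or 8.35 IP reads per input read (95% interval 5.40 to 13.5, counting error only). Il1rapl1, a synaptic adhesion gene, had one of 696 kb with 78 and 217 reads. Immp2l, a mitochondrial inner membrane peptidase gene, was the best covered of the 8, with 1474 input and 7222 IP reads in 635 kb. The authors' deposited table gave these 8 peaks log2 fold changes from 2.49 (Gpc5) to 5.39 (Hs6st3), with adjusted p-values from 2.0e-65 (Immp2l) to 5.4e-11 (Prkg1).

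Across named wide peaks the share of the gene covered had a median of 33.0%, with quartiles at 16.1% and 58.0%, against 2.43% for shorter peaks. Of the 2342, 745 (31.8%) covered over 50% of their gene, 351 over 75% and 156 over 90%. The smallest share was 0.94%. Cover fell as genes became longer, from a median of 77.0% in protein-coding genes of 10 to 25 kb to 9.48% in those over 500 kb, while the median width grew from 12.9 kb to 82.8 kb. Part of both trends follows from the width limit. In a gene of 10 to 25 kb a wide peak has little room, so its cover is high and its width small. How far the intervals widened with the gene beyond that limit was not tested.

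Among the 8 peaks with the largest share of a gene over 10 kb, 5 were in lncRNA genes (2310026I22Rik, Gm40733, Gm52298, LOC115486538 and Gm17135). All 5 of these were wider than their gene and ran past it, such as 22.4 kb at the 11.7 kb 2310026I22Rik. At the 30.6 kb Gm17135 the peak was 58.1 kb wide. The protein-coding ones were Aunip, a gene of a spindle protein, Chst12, a chondroitin sulfotransferase gene, and Ndufaf2, an assembly factor of respiratory complex I. The Chst12 peak of 19.8 kb covered 99.8% of its gene with 948 input and 4415 IP reads. The Ndufaf2 peak of 154 kb ran past the 106 kb gene and had 414 and 1188 reads, so it also took in sequence outside Ndufaf2. As a class, the 155 wide peaks of lncRNA genes covered a median of 72.8% of the gene and the 2179 of protein-coding genes 31.1%. Cover moved with gene span, and both classes were not matched by span. The lncRNA peaks had fewer reads, a median of 154 input and 483 IP reads against 684 and 1355. Their median log2 fold change in the authors' deposited table was 3.72 against 3.40.

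The place of a peak was read from the first and the last 10% of the gene span, in the direction of transcription. Of the named wide peaks, 896 (38.3%) reached the first 10% and not the last, 563 (24.0%) the last and not the first, 185 (7.90%) both, and 698 (29.8%) neither. Counting those that reached both, 46.2% touched the first 10% and 31.9% the last 10%. The shorter peaks had the opposite order, with 13.7% at the first 10% and 51.2% at the last. The 5' group had the greater median cover, 43.3% of the gene against 22.1% for the 3' group.

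**Figure D3:**
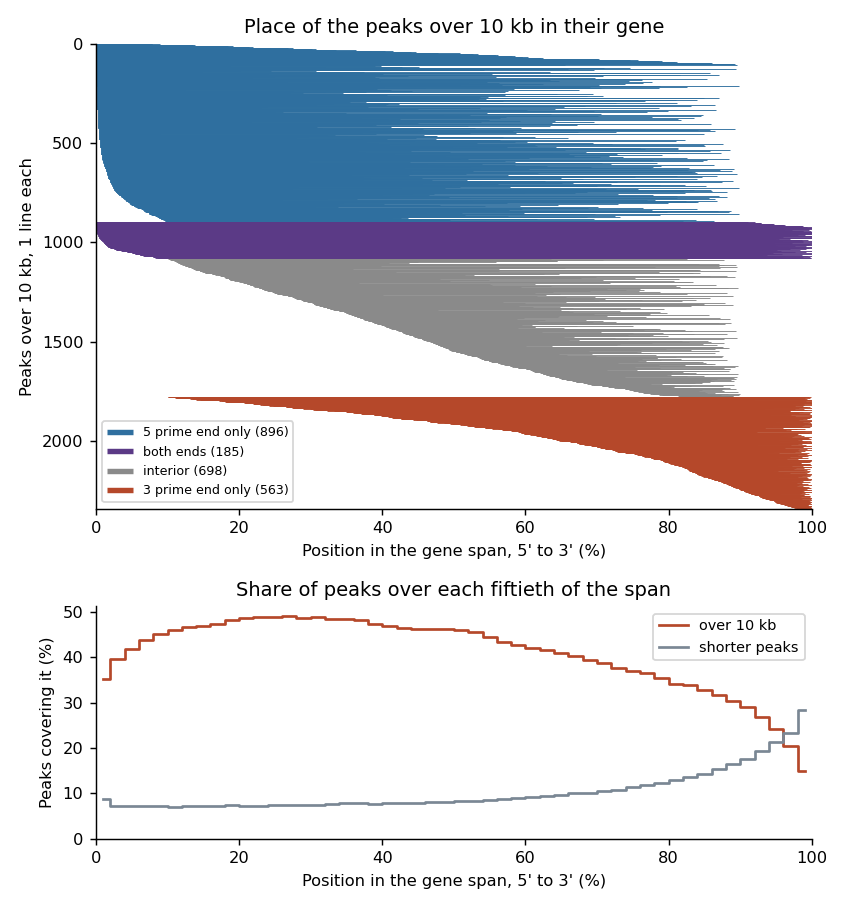
Position of each named peak over 10 kb along its gene, in percent of the gene span from the 5' to the 3' end (top, 1 horizontal line per peak, coloured by the end it reaches), and the share of wide and shorter peaks that cover each 2% of the span (bottom). The lines from the 5' end (896) outnumber those from the 3' end (563), and the curve of shorter peaks is highest at the 3' end.

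A wide interval has less freedom of place than a short one, because a peak over more than 20% of a gene cannot have its midpoint in the first or last 10%. Midpoints in the last 10% were accordingly rare among wide peaks, 8.16% against 42.7% of shorter peaks. The comparison was therefore repeated in peaks that covered at most 10% of a gene longer than 10 kb. There 126 of 329 wide peaks had the midpoint in the last 10% (38.3%, 95% exact binomial interval 33.0 to 43.8) and 48 in the first (14.6%, 11 to 18.9). Of 11201 shorter peaks, 54.4% were in the last 10% and 9.96% in the first. With little cover the last 10% was thus the more frequent end for both kinds. The 329 lay in longer genes, with a median of 304 kb against 52.1 kb.

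The edges of the intervals can be set against the annotated ends. In genes with an annotated start in the promoter table, 427 of 1845 wide peaks (23.1%) had the 5' edge within 200 bases of a start, against 8.67% of shorter peaks. Within 50 bases the shares were 12.1% and 4.99%. At the other end it was reversed: 3.71% of wide peaks and 16.9% of shorter peaks had the 3' edge within 200 bases of the gene end. Wide peaks thus more often began where the transcript begins, as in the sequences of Inka2 and Ckap2, and more rarely stopped where the gene stops. Among the 415 wide peaks not assigned to a gene, 22 touched the gene of their identifier and overhung it mostly at its 5' end, and 20 mostly at its 3' end.

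The motif GGAC was searched in the 50 bases from each annotated start. It was in 45 of 227 starts that carried the edge of a wide peak (19.8%) and in 18.9% of all 32851 promoters of the table. On either strand the shares were 33.5% and 33.3%. The longer GGACT, which contains GGAC, was in 4.85% against 5.76%, and on either strand in 8.81% against 10.4%. These windows cover only the first bases of peaks of over 10 kb, and the rest of the sequence under the peaks was not analysed here.

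Reads and enrichment were then set beside those of shorter peaks. The median wide peak had 595 input reads (quartiles 173 and 1550) and 1144 IP reads (317 and 4302), and the median shorter peak 448.5 (134 and 1221) and 832.5 (257 and 2856). Wide peaks thus had 1.33 times the input and 1.37 times the IP reads, and both distributions overlapped over most of their range. The authors' deposited table gave wide peaks a median log2 fold change of 3.41 (quartiles 2.67 and 4.09) and shorter peaks 3.01 (2.32 and 3.77), a difference of 0.40. The plain ratio of the deposited reads was 2.47 IP reads per input read against 2.33, which on the log2 scale with a pseudocount of 0.5 is 1.30 against 1.22, a difference of 0.08. The sources used here do not say how the authors scaled their fold change. It stood above the log2 value of that plain ratio by a median of 2.13 in wide and 1.83 in shorter peaks. So most of the gap in the authors' fold change had no match in the ratio of the reads.

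A log2 fold change above 4 in the authors' deposited table was found for 782 wide peaks, which is 28.4%, against 18.5% of shorter peaks and 19.8% of all peaks. All 2757 had an adjusted p-value under 0.05 there, as did nearly all peaks (100% after rounding), so the adjusted p-value did not set wide peaks apart. In 264 wide peaks (9.58%, against 11.5% of shorter ones) the IP count was below the input count although the authors' log2 fold change was positive. Input was under 50 reads in 269 wide peaks (9.76%, against 12.1%).

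The median of the authors' log2 fold change (authors' deposited table) rose with width up to 20 to 50 kb and was lower beyond, while IP reads and the ratio of reads were highest at 1 to 5 kb. The medians of the authors' log2 fold change, from the authors' deposited table, were 2.68 in peaks up to 0.2 kb, 2.95 from 0.2 to 1 kb, 3.22 from 1 to 5 kb and 3.37 from 5 to 10 kb. Above that the same table gave 3.44 at 10 to 20 kb, 3.45 at 20 to 50 kb, 3.30 at 50 to 100 kb and 3.22 above 100 kb. The median IP reads went from 433 in the narrowest band to 1400 at 1 to 5 kb, and then to 1269.5 at 10 to 20 kb and 784 above 100 kb. Spearman's correlation of width with the authors' log2 fold change was -0.01 over the 2757 wide peaks and 0.20 over all 21195, as a description of peaks that share libraries and genes. The comparison thus depended on which shorter peaks were taken. Against shorter peaks of over 1000 bases, a choice made after seeing the data, the difference in the authors' log2 fold change (authors' deposited table) was 0.15, and wide peaks had fewer reads, 0.933 times the input and 0.830 times the IP reads.

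**Figure D4:**
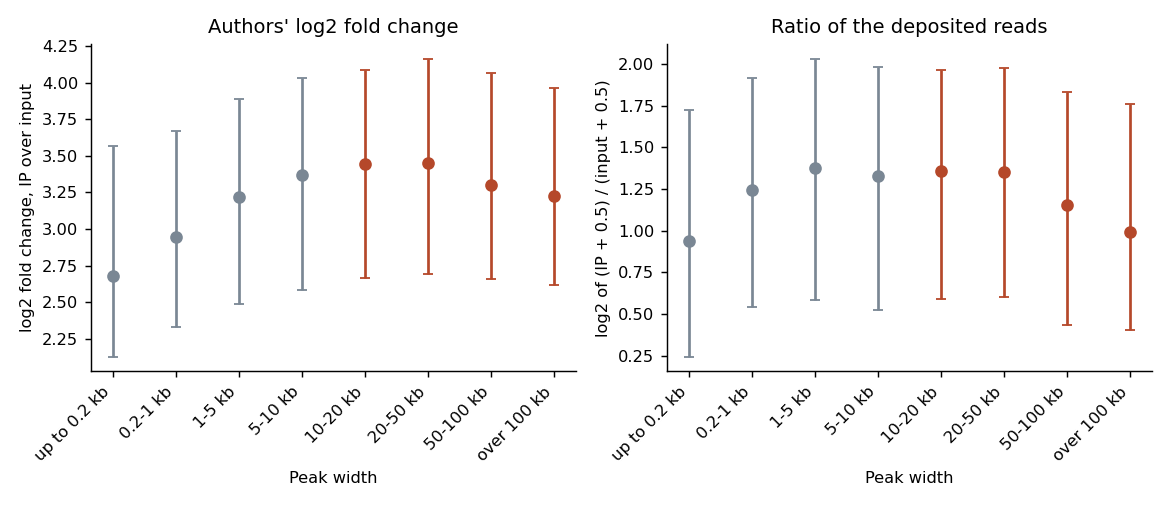
Median (point) and quartiles (bars) of the authors' deposited log2 fold change (left) and of the log2 ratio of IP to input reads with a pseudocount of 0.5 (right), by peak width in kb, with peaks over 10 kb in red. The axes do not start at 0. The authors' value climbs from 2.68 to 3.45 and then falls to 3.22, and the ratio of reads is lower above 50 kb than at 10 to 20 kb.

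The input count of a peak moved with this difference. Among peaks with under 100 input reads the authors' deposited table gave wide peaks a median log2 fold change 0.15 above that of shorter peaks, and the log2 ratio of reads differed by -0.18, with wide peaks lower. With 100 to under 500 input reads the differences were 0.36 in the authors' deposited table and -0.02 in the ratio. With 500 to under 2000 they were 0.54 and 0.21, and with 2000 or more 0.54 and 0.23, again with the authors' deposited table given before the ratio. The plain ratio was thus higher in wide peaks only among peaks with at least 500 input reads. Gene span moved with it too: in the authors' deposited table the median of wide minus shorter peaks went from 0.72 in protein-coding genes of 10 to 25 kb to 0.23 at 200 to 500 kb and -0.12 in genes over 500 kb, where the direction turned.

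A closer comparison was made inside genes that held both kinds. There were 1337, and 615 further genes had wide peaks only. Taking the strongest peak of each kind by the log2 fold change in the authors' deposited table, the wide one was higher in 669 genes and the shorter one in 668. Taking medians over the peaks of a gene, the wide ones were higher in 796 genes (59.5%), with a median difference of 0.26 in the authors' deposited table. By medians of the log2 ratio of reads, the wide ones were higher in 721 genes (53.9%) and the shorter ones in 616. The median difference was then 0.11. In the 478 genes with 1 peak of each kind the wide one was higher in 276 and the shorter one in 202, with a median difference of 0.21 in the authors' deposited table. The peak with the most IP reads was wide in 640 genes and shorter in 695. Wide peaks held a median of 43.7% of the IP reads of such a gene. The numbers of wide and shorter peaks per gene were not matched. The splits by strongest peak and by most IP reads therefore cannot show that both kinds are equal. By the strongest peak and by IP reads, then, the genes divided nearly evenly between both kinds. By medians or single peaks the wide ones were more often the higher. For medians this was less marked in the ratio of reads.

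**Figure D5:**
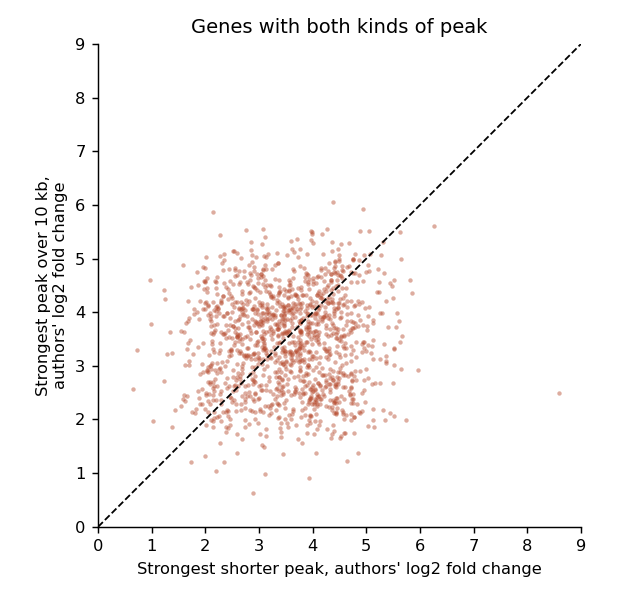
The strongest peak over 10 kb (vertical axis) against the strongest shorter peak (horizontal axis) of the same gene, both as the authors' deposited log2 fold change, for 1337 genes with both kinds. The dashed line marks equal values, with 669 genes above it and 668 below.

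The 8 wide peaks with the most IP reads each had over 100000 of them and lay in 7 genes. Cspg5, a brain chondroitin sulfate proteoglycan, had 48540 input and 312600 IP reads in 11.1 kb, 59.3% of the gene, or 6.44 IP reads per input read (95% interval 6.38 to 6.5, counting error only). Dag1, the dystroglycan that links cells to the extracellular matrix, had 63549 and 247402 in 11.5 kb at its 3' end. Fmn2, a formin that assembles actin, had 38136 and 238642 in an interior interval of 26.6 kb, only 8.30% of the gene, and a ratio of 6.26 (6.19 to 6.33). Ccdc12, a gene of a spliceosome protein, had 35899 and 109992, with a ratio of 3.06. The ratios of these peaks differed by more than their counting intervals, between 3.06 in Ccdc12 and 6.44 in Cspg5. Sema6a, a transmembrane semaphorin, had 43527 and 168343 reads and a ratio of 3.87. In the authors' deposited table the log2 fold changes of these 5 ran from 3.28 (Ccdc12) to 5.18 (Fmn2).

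Mki67, the proliferation marker, held a pair of wide peaks that met near the middle of its 26.7 kb gene and were 659 bases apart. The 3' one covered 53.6% of the gene with 34429 input and 118555 IP reads, the 5' one 42.4% with 6821 and 16659. The authors' deposited table gave log2 fold changes of 3.87 and 3.41. Together they spread over nearly the whole gene, and the 3' one was the higher in reads and in enrichment.

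Sox2ot, a lncRNA gene that surrounds the stem cell factor gene Sox2, also had a pair, at chr3:34573844-34611835 and chr3:34611886-34630206 with 50 bases between them. The first had 31798 input and 172759 IP reads, the second 31737 and 172727. The counts of both differed by 0.02% (IP) and 0.19% (input) although the intervals were 38.0 kb and 18.3 kb wide. Of 390 pairs of neighbouring wide peaks in a gene, this was the only one within 1% in both counts. Both carried the same 5 gene identifiers and had a log2 fold change of 4.49 and 4.48 in the authors' deposited table. Whether the same reads were counted in both was not tested. They ended 19788 bases before Sox2, which had 1 named peak of its own.

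The strongest wide peaks by the authors' log2 fold change stood well above the median wide peak. Among those with at least 50 input reads, Lcorl, a gene of a transcriptional regulator, led with 5.93 in the authors' deposited table, and 7104 input and 63669 IP reads in 13.9 kb of its interior. St8sia4, which builds the polysialic acid of neural cell adhesion molecules, had 605 and 3664 reads and 5.55 in the authors' deposited table. Bdnf, the brain-derived neurotrophic factor, had 505 and 4207 reads over 28.8% of its gene, a ratio of 8.33 (95% interval 7.59 to 9.15), and also 5.55 in the authors' deposited table. The other 5 (the adhesion gene Mdga2, the zinc finger genes Trps1 and Zfp945, the chromatin gene Kmt2e and the mitochondrial gene Chchd3) lay between 5.44 and 5.52 in the authors' deposited table. The Trps1 peak was 159 kb wide and covered 67.5% of the gene. Of these 8, 5 reached the last 10% of their gene, and Kmt2e alone the first 10%, beside 31.9% and 46.2% of all named wide peaks. Over all named wide peaks the authors' deposited table gave a median of 3.63 to those at the 3' end only. It gave 3.31 at the 5' end only, 3.67 at both ends and 3.29 in the interior.

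At the other end were Dgkk, a diacylglycerol kinase gene, at 0.64 in the authors' deposited table, the guidance receptor gene Nrp2 at 0.91, the collagen gene Col18a1 at 0.99 and the focal adhesion gene Tns3 at 1.03. All 4 had fewer IP than input reads. The Tns3 peak had 19489 input and 12517 IP reads and a ratio of 0.642 (95% interval 0.628 to 0.657).

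Wide peaks of the same gene differed among themselves. In the 320 genes with more than 1, the log2 fold changes of the authors' deposited table had a median range of 0.94, and in the upper 25% of these genes the range was above 1.59. Macrod2, a hydrolase gene of 1998 kb, had 5. Its IP reads were 34, 3754, 2186, 77 and 4996 from the 5' to the 3' end, on 24, 825, 1080, 66 and 881 input reads. The widest of them, 452 kb, had the highest log2 fold change in the authors' deposited table, 5.10, and the 322 kb one beside it the lowest, 2.75. Sipa1l1, a gene of a synaptic GTPase activator, also had 5, with IP reads of 171, 146, 594, 2839 and 1668 in the same order and log2 fold changes of 2.65 to 3.45 in the authors' deposited table.

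Of the 11 genes tied at 4 wide peaks, the first 4 by alphabet are described. The glutamate receptor gene Grm5 had 4, with IP reads of 4095, 3628, 1791 and 7719 on 2838, 3183, 1887 and 5613 input reads. Its log2 fold changes in the authors' deposited table were 3.38, 2.93, 2.69 and 3.19, and only the third had fewer IP than input reads. The chromatin factor gene Dpf3 also had 4, and they followed each other over most of its 274 kb, with IP reads of 64, 5381, 309 and 290 from 5' to 3'. The first was the widest of them, 117 kb, and rested on 17 input reads. Cald1, a gene of an actin-binding protein, had 876, 3276, 60 and 3383 IP reads in 4 intervals of similar width, 20.9 to 31.3 kb, and its second had a ratio of 0.819. In Erc1 the 4 had 1010, 3156, 1170 and 1085 IP reads from 5' to 3', and the narrowest, at 10040 bases, had the highest log2 fold change in the authors' deposited table (4.85) and the 28.4 kb one the lowest (1.66). Width did not order the peaks within these genes.

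Neighbouring wide peaks of a gene never overlapped in the 390 pairs, and 65 pairs lay at most 200 bases apart. Within the intervals, 418 wide peaks (15.2%) enclosed another peak whole, 353 of them one on the opposite strand and 83 one on the same strand. None of the enclosed peaks carried the same gene identifiers as the wide peak around it. The sources used here do not say whether the counting used strand, so reads of a gene and of a partner on the other strand cannot be told apart.

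Groups of genes were counted against the 20.2% of protein-coding genes with a named peak that hold a wide one, and beside the span of their genes, since span moved with that share. Of the genes that write, erase and read m6A, 8 of 19 with a peak had a wide one (42.1%, 95% exact binomial interval 20.3 to 66.5), in genes of a median span of 29 kb. All 8 are named, a choice made after the values were seen: the readers Ythdf1, Ythdf2 and Ythdf3, the erasers Fto and Alkbh5, and the writer subunits Zc3h13, Virma and Cbll1. Their peaks covered a median of 71.0% of the gene, against 33.0% over all wide peaks. Wide peaks of all protein-coding genes covered a median of 77.0% at a span of 10 to 25 kb and 46.6% at 25 to 50 kb. Of the genes with a named peak in these bands, 8.04% and 20.0% had a wide one. Ythdf3 had 6307 input and 29084 IP reads over 73.6% of the gene, Ythdf2 had 4490 and 25946 over 91.3%, and Ythdf1 had 4805 and 15870 over 87.3%, and the authors' deposited table gave log2 fold changes of 5.09, 4.76 and 3.76. Virma had 4971 and 16569 reads, and Alkbh5 1774 and 1729. Fto had a pair that differed, with 251 and 1539 reads at the 5' end and 657 and 631 in the interior, and the authors' deposited table gave 4.61 and 1.83 (log2). Mettl14, the gene deleted in the knockout, had 2 peaks, both shorter than 10 kb, and Mettl3 had no named peak. In this list 5 of 9 wide peaks were above 4 in the authors' deposited table, beside 28.4% of all wide peaks.

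Adhesion and axon guidance genes had wide peaks in 38 of 65 genes (58.5%, 45.6 to 70.6), the highest share of the lists, and also the longest genes, with a median of 276 kb. For comparison, 48.6% of protein-coding genes of 200 to 500 kb had one. Their 55 wide peaks covered a median of 11.6% of the gene. Pcdh17, a protocadherin gene, had 386 input and 1989 IP reads in 55.2 kb at its 3' end. Mdga2 had 1129 and 6596 in the last 10% of its 763 kb. The log2 fold changes of Mdga2 and Pcdh17 in the authors' deposited table were 5.52 and 5.32.

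Large cytoskeletal linkers and motors had wide peaks in 21 of 38 genes (55.3%), with a median gene span of 180 kb and cover of 9.88%. For comparison, 43.3% of protein-coding genes of 100 to 200 kb had one. Besides Fmn2, the strongest were Myo9a, a myosin gene, with 702 input and 2747 IP reads at its 5' end, and Akap9, a centrosomal scaffold gene, with 1625 and 6913. Chromatin regulators had wide peaks in 30 of 66 genes (45.5%, 33.1 to 58.2), at a median span of 82.0 kb. Of protein-coding genes of 50 to 100 kb, 31.5% had one. Only 3 of the 38 wide peaks of chromatin regulators reached the last 10%, where 31.9% of all wide peaks did. The first 10% was reached by 15 of the 38, against 46.2% of all wide peaks. Few peaks at the last 10% were not particular to chromatin regulators. The counts were 4 of 27 for the cytoskeleton, 2 of 14 for the ubiquitin system and 1 of 11 for decay. They were 1 of 7 for Wnt and 1 of 6 for Notch with Hedgehog. Higher were FGF, EGF and ERK (2 of 6), adhesion and guidance (17 of 55) and m6A genes (3 of 9). Cover and span were not matched. Kmt2e had 1509 input and 10143 IP reads, Ash1l, a histone methyltransferase gene, 2360 and 12086, and Kat6a, a histone acetyltransferase gene, 3765 and 21036. All 3 of these peaks reached the first 10% of the gene, and their log2 fold changes in the authors' deposited table were 5.50, 4.89 and 4.83.

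Ubiquitin ligases and proteases had wide peaks in 13 of 39 genes (33.3%), at a median span of 101 kb, where 43.3% of protein-coding genes of 100 to 200 kb had one. Of these 14 peaks, 10 reached the first 10%, where 46.2% of all wide peaks did. Usp34, a deubiquitinase gene, had 1679 and 8854 reads, the ligase gene Herc1 768 and 3587, and Fbxw7, a substrate receptor gene, 540 and 2139. For messenger RNA decay the count was 10 of 38 (26.3%) at a median span of 55.9 kb, and the median log2 fold change of the 11 peaks was 2.63 in the authors' deposited table, below the 3.41 of all wide peaks. Upf2 of nonsense-mediated decay had 1372 and 8357 reads, Pum2, an RNA-binding repressor gene, 4170 and 20450, and Tnrc6a of the microRNA silencing complex 705 and 3068. The authors' deposited table gave these 3 a log2 fold change of 5.09, 4.92 and 4.50, so the strongest and the middle of the list lay far apart.

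Signalling lists lay near the 20.2% of all genes, with median gene spans of 64.3 kb (FGF, EGF and ERK), 71.7 kb (Wnt) and 57.6 kb (Notch with Hedgehog). Of all protein-coding genes of 50 to 100 kb with a named peak, 31.5% had a wide one. The FGF, EGF and ERK pathway, the receptors of which the culture medium engages, had wide peaks in 6 of 32 genes (18.8%), Wnt in 5 of 26 (19.2%) and Notch with Hedgehog in 6 of 24 (25%). Frs2, the adaptor of FGF receptors, had 4424 input and 16980 IP reads in a peak over the 5' end of its gene, Gab2, an adaptor, 299 and 734, and the kinase gene Araf 337 and 890 over 81.0% of the gene. Axin1, a scaffold that restrains Wnt signalling, had 883 and 4027 over 70.4%, the coreceptor gene Lrp6 742 and 2010 in the strongest of its 3 wide peaks, and the receptor gene Ror1 395 and 1251. Gpr161, a receptor that restrains Hedgehog signalling, had 1025 and 6279, the Notch coactivator gene Maml1 1419 and 5821, and Rbpj, the DNA-binding partner of Notch, 31 and 65. Ribosomal protein genes, with a median span of 4.14 kb, had no wide peak in the 11 with a peak, and none of these 11 was long enough for one.

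Among cell type markers with a peak, wide peaks were found in 2 of 12 progenitor and 2 of 8 neuronal genes. The counts were 0 of 10 for astrocytes and tanycytes, 1 of 7 for the oligodendrocyte lineage and 0 of 2 for other tissues. In this order the exact binomial intervals were 2.09 to 48.4%, 3.19 to 65.1%, 0 to 30.8%, 0.36 to 57.9% and 0 to 84.2%. Each interval contained the 20.2% of all protein-coding genes with a named peak. Of these markers, 7, 7, 8, 5 and 2 were longer than 10 kb and could hold a wide peak. The counts are too small to show a difference between cell types. The progenitor genes with a wide peak were Mki67 and Lhx2, a homeobox gene with 1672 input and 3878 IP reads. The neuronal ones were Gap43, a growth cone gene, and Map2, a microtubule gene. Gap43 had 3534 input and 12439 IP reads in a 5' interval of 48.6 kb that began at its first base, and 3127 and 3606 in one of 43.0 kb over the 3' part. The authors' deposited table gave its peaks log2 fold changes of 4.18 and 2.60, the higher at the 5' end. The stronger peak of Map2 had 7966 and 7280 reads over 58.5 kb, so fewer in the IP. Sox6, of the oligodendrocyte list, had 1031 and 2869 in 10.4 kb at the end of a 570 kb gene.

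The share of wide peaks differed between chromosomes, from 9.21% of peaks on chromosome 7 to 19.1% on chromosome 18 among autosomes and 16.9% on the X. By strand, 1398 were on the plus and 1359 on the minus strand.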

How the data were processed

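m6A-seq IP and input libraries of control and Mettl14 knockout cells were grouped by the labels' titles. Tools in the submitters' processing notes are STAR 2.5.2a, Trimmomatic 0.32 and bcl2fastq 2.17.1.14, and builds are GRCm38.p6 and GRCh38.p13. The sources used here do not give the peak caller, counter, pooling of libraries or use of strand, and the labels name a kit without a strand setting. The deposited counts are whole reads per peak, 1 input and 1 IP column, per the file headers, and may be sums or rounded means over libraries. The deposited log2 fold change, p-values, adjusted p-values and score are the authors' own, with normalization and test not stated. The first was taken as IP over input. The score was not used further.

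With no column for a library, the planned comparison of genotypes was not run, and all comparisons between peaks are descriptions without a test, since peaks and genes are not replicates. The peaks, gene lists and rules were chosen with earlier results of these data known. Printed intervals are exact (Clopper-Pearson, 95%). Those of shares count genes or peaks. Those of read ratios cover the error of counting alone: reads amplified by PCR, with no molecular identifiers, are not separate molecules. For the dependence on processing, intervals of medians came from the ranked values of peaks (binomial, 95%), as if peaks were independent. For differences and ratios of medians the median of shorter peaks was held fixed. The pseudocount was 0.5.

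Gene spans came from RefSeq GRCm38.p6 (49997 genes, no exons). Strand was known for 27025, from the promoter table. Each set of deposited gene identifiers took the gene, on the same or an unknown strand, that held at least 50% of over 50% of its peaks. Genes that contained the peaks within 500 bases came first, then the single protein-coding one. Where sets with no shared identifier claimed a gene, 10 times the IP reads decided, and 90 genes stayed unnamed. This naming was revised during the work after unnamed and wrongly named peaks were seen. On simulated peaks in 600 genes over 30 kb, 597 were named, all to the right gene. Each simulated peak lay wholly inside a protein-coding gene of known strand and had its own identifier. Peaks that run past a gene, shorter genes, genes of unknown strand and shared identifiers were thus not tested. Genes named are the 8 widest, largest in cover, highest in IP reads and highest in log2 fold change with at least 50 input reads, the 4 lowest, the 6 genes with most wide peaks (ties by alphabet), the 3 strongest per list, those beside 10000 bases, and hosts of printed sequences. 1 gene that this rule names is not reported here. Python 3.11.15, pandas 2.3.3, numpy 2.4.6, scipy 1.17.1 and matplotlib 3.10.9 were used.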

Additional observations from a re-analysis of the deposited data

How the results depend on the processing

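Of 35 alternative values, 17 moved by less than the interval or bound of the main value, 16 moved by more and 2 reversed. With wide peaks taken over 5000 bases, 4571 peaks qualified, cover was 24.2%, midpoints in the last 10% of the gene 13%, peaks reaching it 35.9%, and the ratios to shorter peaks 1.44 (input) and 1.55 (IP). Over 20000 bases, these were 1541, 38.9%, 4.70%, 29.6%, 1.23 and 1.24. With an adjusted p-value under 1e-10 in the authors' deposited table, the IP ratio was 1.26. The log2 ratio of reads in place of the authors' log2 fold change gave a difference of 0.081 with a pseudocount of 0.5 and 0.078 with 5, against 0.40 in the authors' deposited table. Against shorter peaks of over 1000 bases, an alternative chosen after seeing the data, that difference was 0.15 in the authors' deposited table, and the ratios turned to 0.933 (input) and 0.830 (IP). Peaks with 1 identifier, another gene assignment, the strongest wide peak per gene, at least 50 input reads and shorter peaks of the same genes moved no value by more. No paired analysis was possible because no column belonged to a library or a genotype, and leaving out replicates was not run for the same reason. Peaks with under 50 input reads, 9.76% of wide ones, have wide counting intervals.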
